A study of Homo sapiens with 23 samples.

Results

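The protein subunits of the respiratory chain are encoded in 2 genomes, the mitochondrial and the nuclear, and their transcripts were followed here after depletion of the tRNA methyltransferase THUMPD3. The genes were taken by name. The mitochondrial ones were the 13 mRNAs of the mitochondrial DNA, and the nuclear ones were 91 protein-coding genes of the NDUFA, NDUFB, NDUFC, NDUFS, NDUFV, SDHA to SDHD, UQCR, CYC1, COX4 to COX8 and ATP5 families, without assembly factors and pseudogenes. All 104 were listed in both count tables, among 61806 genes in the first and 42901 in the second. By complex, the mitochondrial mRNAs were 7 of complex I, 1 of complex III, 3 of complex IV and 2 of complex V. The nuclear genes, placed in a complex by symbol alone, were 40 of complex I, 4 of complex II, 10 of complex III, 17 of complex IV and 20 of complex V.

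The cells were A549, an established line of lung carcinoma epithelial cells. THUMPD3 was depleted with an siRNA (siD3 #3, 3 libraries, against 2 siControl libraries) or with either of 2 shRNAs (shD3 #1 against sh1Control and shD3 #4 against sh4Control, 3 libraries each). The shRNAs were expressed from an inducible lentiviral vector in puromycin-selected cells and switched on with doxycycline, and the siRNA was transfected. The paper sets untreated against treated samples and does not say whether the shRNA controls received doxycycline. If they did not, the drug and the knockdown cannot be told apart in the shRNA comparisons. A second table held deeper sequencing of shD3 #1 and sh1Control, again 3 libraries each. The labels call the controls wild type, and they name the replicates biological without saying what separated them, so the p-values measure the spread between these samples only. Total counts were 9854294 to 22101059 in the first libraries and 27285889 to 59974740 in the deep ones. THUMPD3 itself fell in every comparison, by 0.97 on the log2 scale in shD3 #1, by 1.67 in shD3 #4, by 2.55 in siD3 #3 and by 1.01 in deep shD3 #1. In each comparison its highest knockdown library lay under its lowest control. Of the keratin markers of the A549 epithelium, KRT8 was at 1260 cpm (counts relative to library size, in the usual cpm unit) or more in all libraries. KRT18 was at 984 cpm or more, KRT7 at 917 cpm or more and KRT19 at 19.9 cpm or more. CDKN2A, deleted in A549, had 0 counts throughout. The leukocyte genes PTPRC and CD3E had at most 4 counts in a library. The endothelial genes PECAM1 and CDH5 and the fibroblast gene PDGFRB had at most 28. The macrophage-associated gene CD68 stood at 45.3 to 97.7 cpm in the deep libraries against at most 0.394 in the first ones. The fibroblast gene COL1A1 stood at 7.67 to 27.8 cpm in the deep libraries and at 2.46 to 8.16 cpm in the first ones. The part of CD68 and COL1A1 in the results was not tested.

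Complexes I, III and IV pump protons across the inner mitochondrial membrane as electrons pass from NADH to oxygen, complex II feeds in electrons from succinate, and complex V uses the gradient to make ATP. Complex II is encoded wholly in the nucleus. The mitochondrial mRNAs arise from long transcripts that cover nearly a whole strand of the circular genome and are cut apart mostly at the tRNAs that lie between them. MT-ND6, a membrane subunit of complex I, is the only mRNA read from the light strand. The nuclear subunits are transcribed gene by gene, in part through the factors NRF1 and GABPA, translated in the cytosol and imported. In bulk RNA, more mitochondrial transcript per genome and more mitochondrial genomes per cell cannot be told apart.

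Several mitochondrial genes overlap, and those with the shortest mRNAs are shown since their values depend on how shared reads were counted. MT-ATP8 (hg38, chrM:8366-8572, plus strand, 207 bases, an accessory subunit of the proton channel part of complex V) shares its last 46 bases with MT-ATP6. MT-ND4L, a small membrane subunit of complex I, shares 7 bases with MT-ND4, and its end is shown in chrM:10700-10806. Both are given with the shared bases in capitals, which open with the ATG of the second gene and close with the stop codon of the first.
MT-ATP8 with the start of MT-ATP6: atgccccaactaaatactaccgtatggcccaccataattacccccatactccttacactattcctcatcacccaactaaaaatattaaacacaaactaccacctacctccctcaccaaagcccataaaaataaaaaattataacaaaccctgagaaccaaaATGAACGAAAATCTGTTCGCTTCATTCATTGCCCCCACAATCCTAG
MT-ND4L end with the start of MT-ND4: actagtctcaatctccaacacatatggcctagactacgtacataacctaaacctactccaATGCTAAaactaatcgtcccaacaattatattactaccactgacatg
The strand setting and the treatment of overlaps in counting were not given in the sources used here, so values of MT-ATP8, MT-ATP6, MT-ND4L and MT-ND4 are uncertain where reads span both genes. MT-ND6 (chrM:14149-14673, minus strand) lies next to MT-ND5, with no shared base.

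Of the nuclear genes, 71 had a promoter in the RefSeq table (GRCh38.p14), from 250 bases before to 50 after the start of the gene. The NRF1 core, searched as GCGCATGC or GCATGCGC, was in 13 of them (18.3%) against 3.27% of all 27305 promoters of that length. The ETS core of GABPA, CCGGAAG or CTTCCGG, was in 20 (28.2% against 10.7%). The YY1 core, AAGATGGC or GCCATCTT, was in 11 (15.5% against 3.03%), while the TATA box letters TATAAA or TTTATA were in 7 (9.9% against 12%). A pair of these promoters is shown with the NRF1, ETS and YY1 letters in capitals. That of ATP5PF, a stalk subunit of complex V, held all 3 (chr21:25735005-25735304, minus strand). That of SDHD, a membrane anchor of complex II, held the NRF1 letters on both strands in 1 overlapping stretch and an ETS core (chr11:112086623-112086922, plus strand).
ATP5PF: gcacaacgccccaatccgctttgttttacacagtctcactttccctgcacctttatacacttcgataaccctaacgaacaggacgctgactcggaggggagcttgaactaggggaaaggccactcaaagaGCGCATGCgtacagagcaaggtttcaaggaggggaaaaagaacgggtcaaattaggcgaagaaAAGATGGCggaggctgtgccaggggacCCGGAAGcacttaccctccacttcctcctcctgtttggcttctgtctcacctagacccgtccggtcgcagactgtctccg
SDHD: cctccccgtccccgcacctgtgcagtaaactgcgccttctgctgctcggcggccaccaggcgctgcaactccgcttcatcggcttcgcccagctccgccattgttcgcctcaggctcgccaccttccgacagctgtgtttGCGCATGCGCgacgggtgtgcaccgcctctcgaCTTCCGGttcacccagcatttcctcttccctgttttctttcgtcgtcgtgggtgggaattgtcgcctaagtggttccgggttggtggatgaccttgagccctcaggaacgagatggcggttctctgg
Holding the NRF1 letters went with no separate behaviour that was visible in the medians. In siD3 #3 the median log2 fold change was -0.19 over 13 tested genes with these letters and -0.23 over 54 without, and in deep shD3 #1 it was -0.43 over 12 and -0.44 over 53.

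Levels per length (RPKM, cpm per kilobase of transcript) set the 2 genomes far apart. In sh1Control the mitochondrial mRNAs had a median of 1514 RPKM, from 163 for MT-ATP8 to 7238 for MT-CO3, a core subunit of complex IV. The nuclear genes had a median of 30.1 RPKM, and the highest was ATP5F1B, the catalytic beta subunit of complex V, at 254.6. The order within the mitochondrial set was led by complex IV in all 3 first control groups, with MT-CO3 and MT-CO1 above the rest. The nuclear median of complex II, which has no mitochondrial subunit, was the lowest of the 5 in sh1Control (9.57 RPKM) and the highest in the deep controls (38.9 RPKM). Some of the nuclear levels are uncertain. Over the nuclear genes the deep controls had a median of 0.708 times the cpm of sh1Control in the first table, but NDUFA13 had 31.1 times, SDHA 16.7 times, NDUFA7 15.0 times, NDUFB8 13.2 times and SDHC 11.4 times. Except for SDHC, between 21% and 33.8% of the exon bases of these genes are also exons of another gene on the same strand in GENCODE release 44. NDUFA3 and NDUFA6 passed the filter on low counts in the first table and not in the second. Fold changes below were therefore taken only within a table.

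In siD3 #3, the knockdown with the lowest remaining THUMPD3, the 2 genomes went apart. The mitochondrial mRNAs had a median log2 fold change of 0.48 and the nuclear genes of -0.21, where the median of all 17032 genes tested was 0.03. Counts on all mitochondrial mRNAs over counts on all nuclear respiratory chain genes had a log2 ratio of 1.65 and 1.53 in the siControl libraries and of 2.15, 2.37 and 2.14 in siD3 #3. The groups did not overlap, and the difference of means was 0.63 on the log2 scale, or 0.56 to 0.69 when any 1 library was left out. It was seen in each complex with subunits of both genomes, with differences of 0.64 in complex I, 0.83 in complex III, 0.49 in complex IV and 0.55 in complex V and no overlap in any of them. The ratio is given as a description, and no test was made of it.

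**Figure D1:**
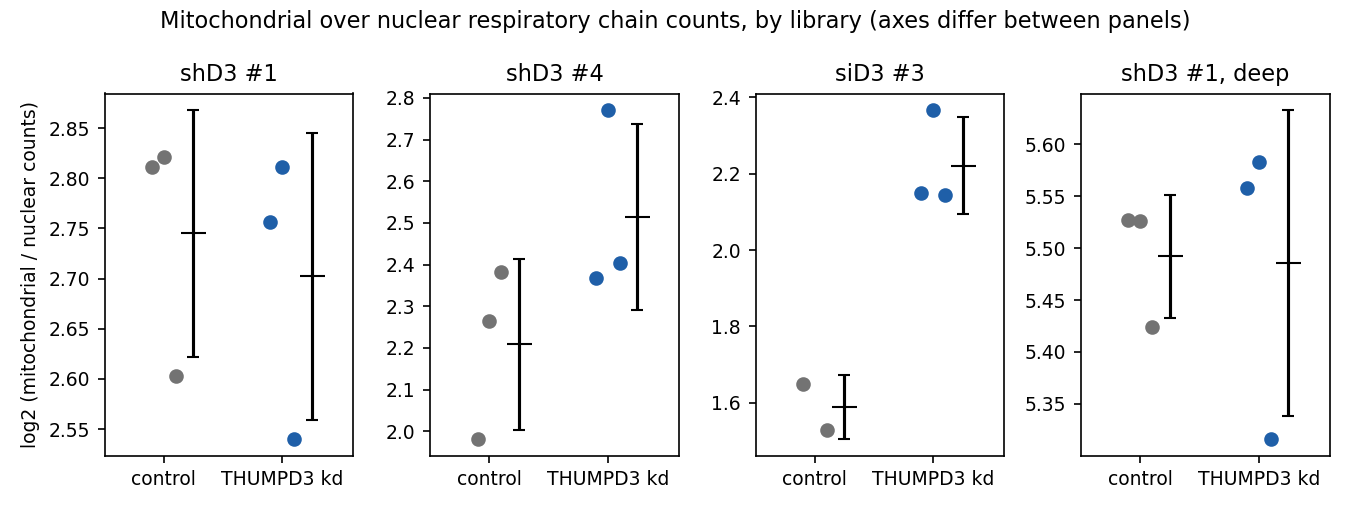
The plot shows, for each library (points), log2 of mitochondrial mRNA counts over nuclear respiratory chain counts in controls (grey) and THUMPD3 knockdown (blue), with mean and SD beside them and a y axis of its own in each panel. In siD3 #3 the 3 knockdown libraries, at 2.14 to 2.37, lie above both controls, while in shD3 #1 and deep shD3 #1 the groups overlap.

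Both sides of the ratio differed in siD3 #3 as shares of all counts. These totals hold the mitochondrial ribosomal RNAs given below, whose larger share in siD3 #3 lowers the shares of the other genes. Mitochondrial mRNAs took 1.61% and 1.69% of the counts of the siControl libraries and 1.88% to 2.28% in siD3 #3, and nuclear respiratory chain genes took 0.54% and 0.559% in siControl and 0.425% to 0.447% in siD3 #3. The 2 mitochondrial ribosomal RNAs, which the same heavy-strand transcription produces, took 23.2% and 25.6% of counts in siControl and 28.0% to 34.2% in siD3 #3, without overlap. Ribosomal RNA was depleted before sequencing, so this share also depends on how much was left. It was also higher in shD3 #4 (25.81% to 28.57% against 28.72% to 34.32%). In shD3 #1 it was lower (28.75% to 30.78% against 26.16% to 26.89%), without overlap in either. Of the 13 mRNAs, 10 were higher in every siD3 #3 library than in both controls, against 30.3% of all genes, and 1, MT-ND6, was lower in every library. MT-ND3, a small membrane subunit of complex I, was the 1 called, that is, past both an adjusted p of 0.05 and a change of 1.5-fold (edgeR's quasi-likelihood test, Benjamini-Hochberg adjustment), where 12.5% of all genes were called higher. At the adjusted p alone, 3 were higher (MT-ND2, MT-ND3 and MT-ND5, all of complex I) and 0 lower, against 16.6% and 16.4% of all genes.

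MT-ND3 stood at 168.6 and 163.2 cpm in siControl and at 258.7, 349.4 and 235.7 cpm in siD3 #3, a log2 fold change of 0.76 (SE 0.17, adjusted p = 0.0103). All of its knockdown libraries were above both controls. MT-CO1, the catalytic core of complex IV and the most counted of the set, stood at 7148 and 6088 cpm in siControl and at 9389, 11100 and 7803 cpm in siD3 #3. Its groups did not overlap, but its log2 fold change of 0.51 (SE 0.18) missed the test (edgeR adjusted p = 0.0669). MT-CYB, the core of complex III, had nearly the same value (0.48, SE 0.16, edgeR adjusted p = 0.0529).

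The nuclear genes of siD3 #3 were spread over a shift to lower values. Of 83 tested, 65 had a negative log2 fold change and 18 a positive one. Short transcripts were lower more widely in siD3 #3. Over all nuclear protein-coding genes, those under 500 bases had a median of -0.35 and those of 500 to 1000 bases -0.18. Those of 4000 bases or more had 0.07. The nuclear members under 700 bases had -0.19 and those of 1500 bases or more -0.16. The part of length in the shift was not tested. In 41 every siD3 #3 library was lower than both controls, against 29.6% of all genes, and 1 was higher in every library. At edgeR's adjusted p alone 20 were lower and 0 higher, and at an unadjusted p under 0.05 it was 31 and 0. The share of all genes at that unadjusted p was not worked out, so the 31 cannot be set against it. With the fold change threshold added, 2 were called lower, where 9.42% of all genes were, a larger share than the 2 of 83, while at the adjusted p alone the 20 of 83 stand beside 16.4%. The 20 were 9 of complex I, 2 of complex II, 4 of complex III and 5 of complex V, and none of the 12 tested genes of complex IV passed. The siD3 #3 library of replicate 3 stood apart from the other two over all genes, and without it the median of the nuclear genes was -0.17 and that of the mitochondrial mRNAs 0.54. The latter rested more on replicate 2 of siD3 #3, without which it was 0.32.

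CYC1, the cytochrome c1 subunit of complex III, was 1 of the 2 called. It stood at 168.5 and 148.8 cpm in siControl and at 97.3, 94.3 and 92.6 cpm in siD3 #3, a log2 fold change of -0.74 (SE 0.09, edgeR adjusted p = 0.000754). The other was ATP5MC1, 1 of 3 genes for the same ring subunit of complex V, at 52.3 and 58.0 cpm against 34.9, 36.8 and 33.4 cpm (-0.65, SE 0.09, edgeR adjusted p = 0.00178). In both genes the knockdown libraries agreed closely and lay far under the controls. Also lower at the adjusted p alone were SDHB (-0.58) and SDHD (-0.53), the iron-sulphur and a membrane anchor subunit of complex II, UQCRC1 (-0.50) and UQCRFS1 (-0.45), the core 1 and Rieske proteins of complex III, and ATP5F1A (-0.38), the alpha subunit of complex V. COX4I1, the regulatory subunit of complex IV, had -0.09 (SE 0.09), with overlapping groups.

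In shD3 #4 the mitochondrial mRNAs were higher and the nuclear genes spread around 0. The medians were 0.40 for the 13 mRNAs and 0.05 for 82 nuclear genes, with 0.01 for all genes. All but MT-ND6, 12 of the 13, were higher at the adjusted p alone and 0 lower, against 20% and 20.8% of all genes. In 9 every shD3 #4 library was above every control (23.3% of all genes). Past both thresholds 3 were higher, MT-ND3, MT-ND4L and MT-ATP8, and 0 lower, against 8% and 4.49% of all genes. Of the nuclear genes 14 were higher and 4 lower at the adjusted p alone, and 0 past both thresholds with edgeR and with DESeq2. At an unadjusted p under 0.05, 18 were higher and 8 lower, and the share of all genes at that p was not worked out. Among the 14 higher at the adjusted p alone were 6 of the 11 genes tested in complex IV.

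The 3 mRNAs called in shD3 #4 were the shortest of the set. MT-ATP8 stood at 18.9, 34.0 and 30.7 cpm in sh4Control and at 40.7, 106.3 and 53.4 cpm in shD3 #4 (log2 fold change 1.26, SE 0.21, edgeR adjusted p = 3.12e-05). MT-ND3 stood at 162.4, 187.3 and 184.0 cpm against 254.9, 460.1 and 312.4 cpm (0.96, SE 0.12, edgeR adjusted p = 6.569e-07). Replicate 2 of shD3 #4 was the highest library for both. It had the highest share of mitochondrial ribosomal RNA, 34.3% of counts, and without it the median of the mitochondrial mRNAs was 0.23. The log2 ratio of mitochondrial to nuclear counts was 1.98, 2.26 and 2.38 in sh4Control and 2.37, 2.77 and 2.40 in shD3 #4. These groups overlapped, with a difference of means of 0.31, or 0.18 without that library. Within complexes I, III and V the groups did not overlap (0.34, 0.47 and 0.49), and in complex IV they did (0.17).

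In shD3 #1, with a THUMPD3 level between 29.6 and 31.8 cpm against 58.3 to 61.4 cpm in sh1Control, the genomes showed no common shift in the first libraries. The medians were 0.07 for the mitochondrial mRNAs and 0.04 for 82 nuclear genes, and -0.01 for all genes. The log2 ratio of the counts was 2.81, 2.82 and 2.60 in sh1Control and 2.76, 2.81 and 2.54 in shD3 #1, with overlap and a difference of -0.04. Single members moved in both directions. At the adjusted p alone 4 mitochondrial mRNAs were higher (MT-ND3, MT-ND4, MT-ND4L, MT-ATP8) and 3 lower (MT-ND1, MT-ND6, MT-CO3), against 28.6% and 27.8% of all genes. Past both thresholds 1 was higher, MT-ATP8, and 1 lower, MT-ND6, against 14.5% and 14.6%. MT-ATP8 was at 84.3 cpm in replicate 3 of shD3 #1, the library of lowest depth, beside 40.1 and 36.5 cpm in the other replicates. Its log2 fold change was 0.65 with all libraries and 0.19 without that one, and its call was also lost without replicate 2 or 3 of sh1Control and with DESeq2. Of the nuclear genes 20 were higher and 11 lower at the adjusted p alone, and 2 and 4 past both thresholds, below the shares of all genes.

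ATP5MC2, another of the ring subunit genes of complex V, was the nuclear member that fell most clearly in shD3 #1. It stood at 65.9, 61.4 and 68.1 cpm in sh1Control and at 36.5, 34.2 and 40.1 cpm in shD3 #1 (log2 fold change -0.81, SE 0.07, edgeR adjusted p = 1.758e-07). It fell in the deep libraries as well, from 58.3, 56.2 and 60.5 cpm to 24.5, 22.7 and 30.1 cpm (-1.17, SE 0.08). In shD3 #4 and siD3 #3 its values were -0.15 and -0.19 and did not pass. The others called lower were NDUFV2, NDUFB3 and NDUFA4L2, all placed in complex I by symbol. Those called higher were UQCR10 of complex III and COX8A of complex IV. Without replicate 2 of sh1Control or replicate 3 of shD3 #1 both of these calls were lost. UQCR10 then had 0.545 and 0.559, and COX8A 0.461 and 0.291. The call of COX8A was also lost without replicate 3 of sh1Control and with either of the other filters on low counts (0.573 and 0.581). NDUFV2 (8.46 cpm in sh1Control, 38.0 in the deep controls) and COX8A (8.35 and 40.9 cpm) are among the genes whose exons are shared with another gene on the same strand, over 28.4% and 35.4% of their bases, and their values are uncertain. NDUFA4L2 had a mean of 1.02 cpm in sh1Control, near the limit of what was tested. COX4I2, an isoform of the lung, had 0 counts in every library, and COX7A1, of muscle, at most 0.0066 cpm as a group mean.

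**Figure D2:**
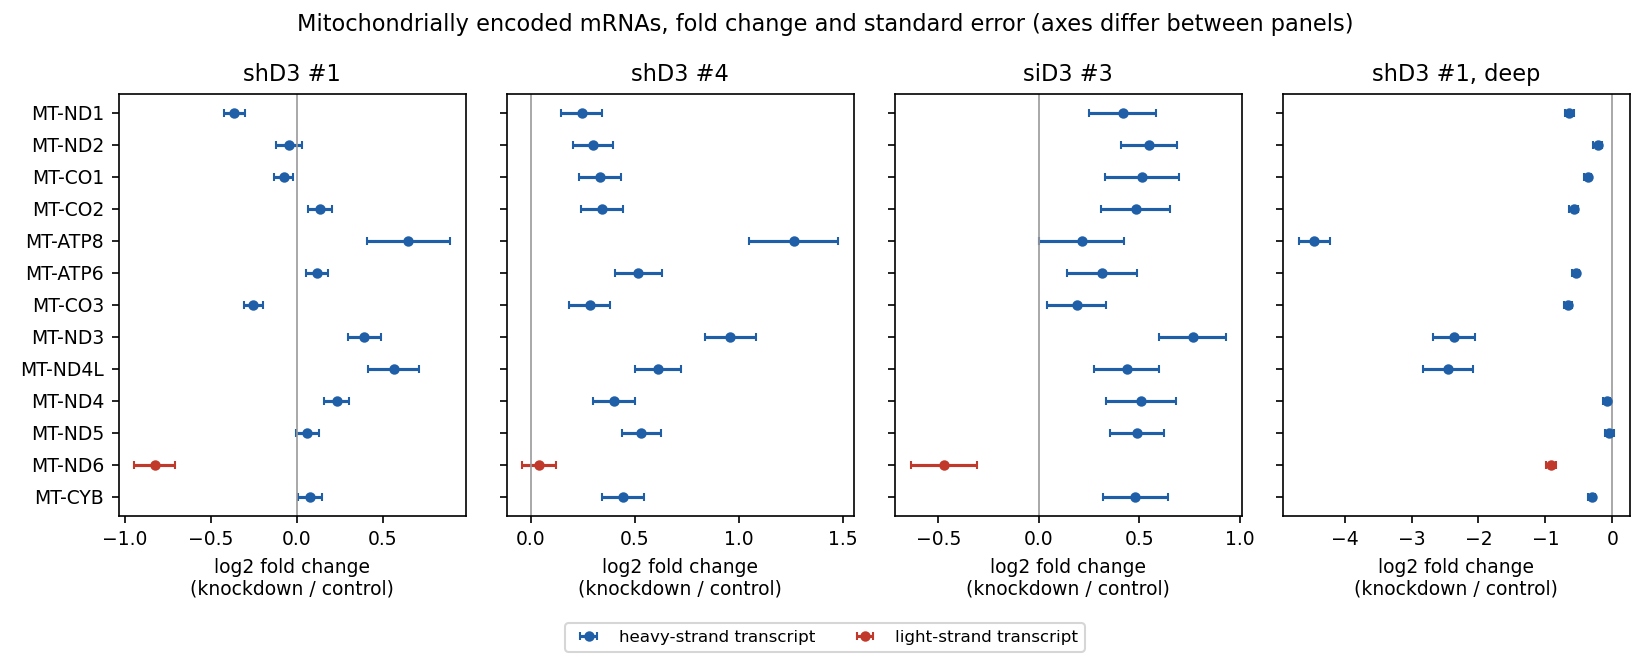
The plot gives the log2 fold change of each mitochondrial mRNA (points) with its standard error, in genome order, for the 4 comparisons, on an x axis of its own in each panel. MT-ND6 (red) lies left of nearly all others in the first 3 panels, and in deep shD3 #1 the short MT-ATP8, MT-ND3 and MT-ND4L lie furthest left, at -4.45, -2.37 and -2.46.

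MT-ND6 took a smaller share of the mitochondrial mRNA counts in the knockdown libraries of every comparison. As a percentage of all mitochondrial mRNA counts it was 1.05%, 0.904% and 0.984% in sh1Control and 0.614%, 0.662% and 0.433% in shD3 #1. In sh4Control it was 1.21%, 1.02% and 0.912% and in shD3 #4 0.882%, 0.822% and 0.809%. In siControl it was 0.907% and 0.904%, and in siD3 #3 0.611%, 0.414% and 0.459%. In the deep libraries it was 0.256%, 0.272% and 0.250% in the controls and 0.158%, 0.167% and 0.202% in shD3 #1. The knockdown libraries were all lower than all of their controls in each of the 4. First and deep shD3 #1 are the same knockdown, and this share was looked at after the values of MT-ND6 had been seen. In the deep libraries the fold changes of the mitochondrial mRNAs went with length, and MT-ND6 has 525 bases. Its deep log2 fold change of -0.92 lay between those of the shorter MT-ND3 (-2.37) and the longer MT-CO2 (-0.58). The part of length in the deep share and fall of MT-ND6 was not tested. The log2 ratio of MT-ND6 to the other 12 mRNAs differed by -0.81 in shD3 #1, -0.32 in shD3 #4, -0.90 in siD3 #3 and -0.57 in deep shD3 #1.

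The level of MT-ND6 itself fell in both tables of shD3 #1. In the first it went from 309.6, 246.8 and 255.9 cpm to 162.3, 174.5 and 113.9 cpm (log2 fold change -0.82, SE 0.12, edgeR adjusted p = 2.187e-05), and in the deep one from 402.1, 419.5 and 369.8 cpm to 182.7, 208.0 and 239.3 cpm (-0.92, SE 0.08, edgeR adjusted p = 9.177e-08). In siD3 #3 it went from 155.7 and 140.3 cpm to 129.3, 105.6 and 84.2 cpm (-0.47, SE 0.16, edgeR adjusted p = 0.0597), without overlap. In shD3 #4 its libraries overlapped, at 233.8, 233.8 and 213.8 cpm against 212.5, 273.6 and 207.6 cpm (0.04, SE 0.08). As the strand setting of the counts is not given, reads of MT-ND6 and of heavy-strand RNA opposite to it cannot be told apart.

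**Figure D3:**
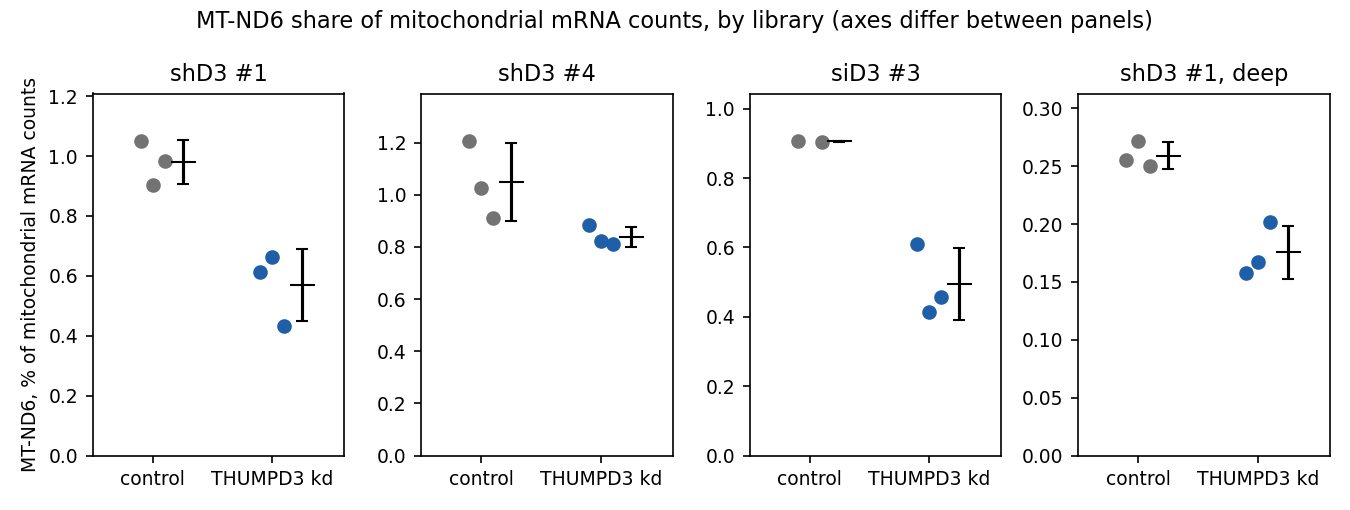
The plot shows MT-ND6 as a percentage of all mitochondrial mRNA counts in each library (points), controls grey and knockdown blue, with mean and SD, on axes that start at 0 and differ between panels. All knockdown libraries lie under their controls, as in siD3 #3, at 0.414% to 0.611% against 0.904% and 0.907%.

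The deep libraries of shD3 #1 gave another picture of the same knockdown, with nearly all members lower. Mitochondrial mRNAs took 14.7% to 15.4% of counts in the deep controls and 11.8% to 12.5% in shD3 #1, several times their share in the first table, while the mitochondrial ribosomal RNAs, at 26.2% to 30.8% in the first libraries of this knockdown and its controls, were at 0.0322% or less. The medians were -0.58 for the 13 mRNAs and -0.47 for 82 nuclear genes, where that of all 18763 genes was -0.02. At the adjusted p alone 11 mitochondrial mRNAs were lower and 0 higher, and 61 nuclear genes lower and 2 higher, against 31.5% and 31.1% of all genes. Past both thresholds 6 mitochondrial mRNAs and 32 nuclear genes were lower, and 0 higher, against 14.1% and 15% of all genes. The ratio of summed counts hardly moved, since both genomes were lower, with log2 values of 5.42 to 5.53 in the controls and 5.32 to 5.58 in shD3 #1. Within complexes I, III and IV the groups overlapped as well, with differences of 0.09, 0.02 and 0.05. In complex V the knockdown libraries were all lower (-0.25).

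Transcript length went with the fall in the deep libraries. Over the 13 mitochondrial mRNAs the Spearman correlation of log2 fold change with length was 0.91, and over the 82 nuclear genes 0.55, as descriptions across genes that share libraries. In the first shD3 #1 libraries the same correlations were -0.45 and -0.19. Nuclear members under 700 bases had a median of -0.62 (37 genes) in the deep libraries and those of 1500 bases or more -0.17 (24 genes), and in the first libraries 0.08 and -0.09. The same held over all nuclear protein-coding genes. Those under 500 bases had a median of -0.95 in deep shD3 #1 (94 genes), those of 500 to 1000 bases -0.24, and those of 4000 or more 0.05. The part of length in the fall of the respiratory chain genes, many of which are short, was not tested further.

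**Figure D4:**
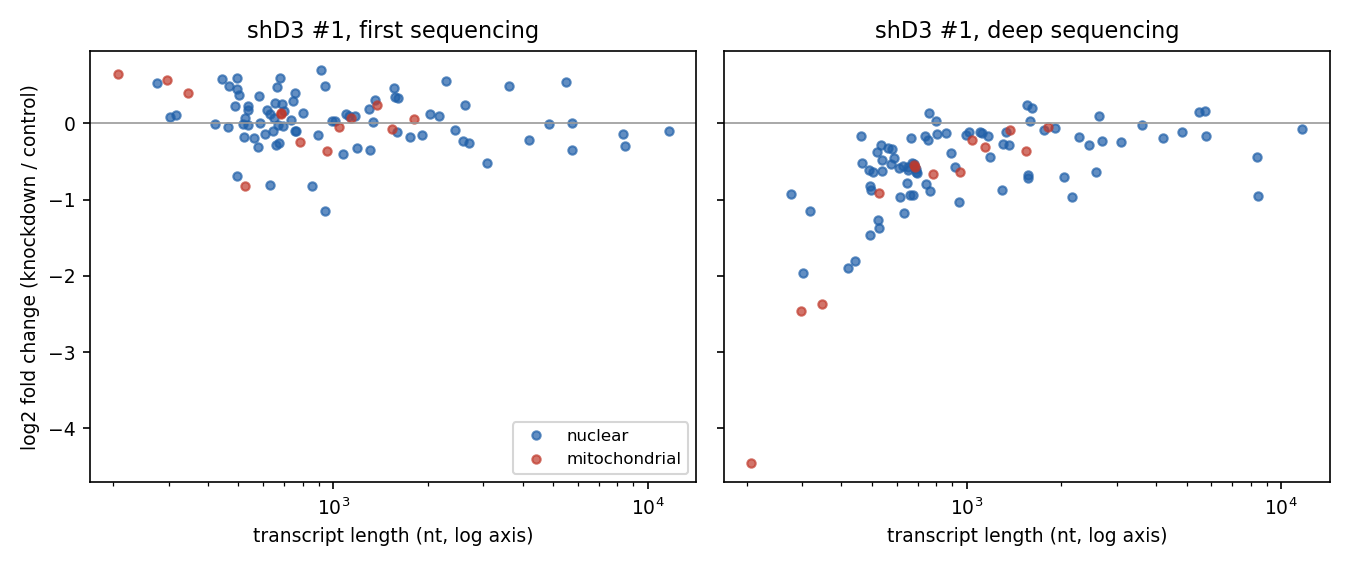
The plots set the log2 fold change of each tested member against transcript length (log axis) in the first and the deep shD3 #1 libraries, mitochondrial in red and nuclear in blue. In the deep panel the shortest mRNAs fell most, down to -4.45 for MT-ATP8 at 207 bases, and in the first panel they did not.

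The shortest mitochondrial mRNAs changed sign between the tables. MT-ATP8 stood at 66.5, 78.6 and 39.5 cpm in the deep controls and at 2.44, 3.18 and 2.83 cpm in deep shD3 #1 (log2 fold change -4.45, SE 0.23, edgeR adjusted p = 6.863e-10), where the first libraries had 44.1, 26.2 and 31.0 cpm against 40.1, 36.5 and 84.3 cpm (0.65). MT-ND3 stood at 512.5, 506.1 and 442.2 cpm against 43.9, 68.6 and 168.9 cpm in the deep libraries (-2.37, SE 0.32), and at 262.2, 181.9 and 229.5 cpm against 294.3, 292.2 and 286.0 cpm in the first (0.39, SE 0.09). Replicate 3 of deep shD3 #1 lay between the controls and the other knockdown libraries. MT-ATP8, MT-ND3 and MT-ND4L together took 0.406% of its mitochondrial mRNA counts, against 0.0965% and 0.141% in the other two and 0.836% to 0.986% in the controls. The long MT-ND5 and MT-ND4, core membrane subunits of complex I, had -0.04 and -0.09 in the deep libraries, with overlapping groups.

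Among the nuclear genes of the deep libraries, ATP5ME and NDUFA1 fell most. ATP5ME, a 303 base mRNA for a membrane subunit of complex V, had a log2 fold change of -1.97 (SE 0.19, edgeR adjusted p = 4.508e-07) and in the first libraries 0.08 (SE 0.14). NDUFA1, a 421 base mRNA for an accessory subunit of complex I, stood at 20.1, 20.02 and 19.6 cpm against 3.23, 4.32 and 8.20 cpm in the deep libraries and at 41.7, 27.7 and 36.3 cpm against 35.4, 29.0 and 40.1 cpm in the first. The first groups overlapped and the deep ones lay far apart. COX4I1 (-0.89, SE 0.13) and UQCRB of complex III (-0.95, SE 0.13) were also called lower, and SDHA, the flavoprotein of complex II, had -0.24 (SE 0.04). ATP5F1B had -0.09 (SE 0.05), with overlap.

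Some members passed in the same direction in both tables of shD3 #1. At the adjusted p alone, 3 mitochondrial mRNAs were lower in both (MT-ND1, MT-ND6 and MT-CO3), 3 were higher in the first and lower in the deep libraries, and the reverse was seen in 0. Of 80 nuclear genes tested in both, 8 were lower in both (NDUFA4L2, NDUFB10, NDUFB3, CYC1, UQCRB, UQCRFS1, ATP5F1A and ATP5MC2), 12 were higher in the first and lower in the deep, and 0 the reverse. Of all 13882 genes tested in both tables and matched by symbol, 23% were lower in both and 1.36% higher in the first and lower in the deep. MT-ND1, a core subunit of complex I, stood at 1575, 1372 and 1395 cpm against 1108, 1131 and 1091 cpm in the first libraries (log2 fold change -0.36, SE 0.06) and fell by 0.64 (SE 0.06) in the deep ones, without overlap in either.

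**Figure D5:**
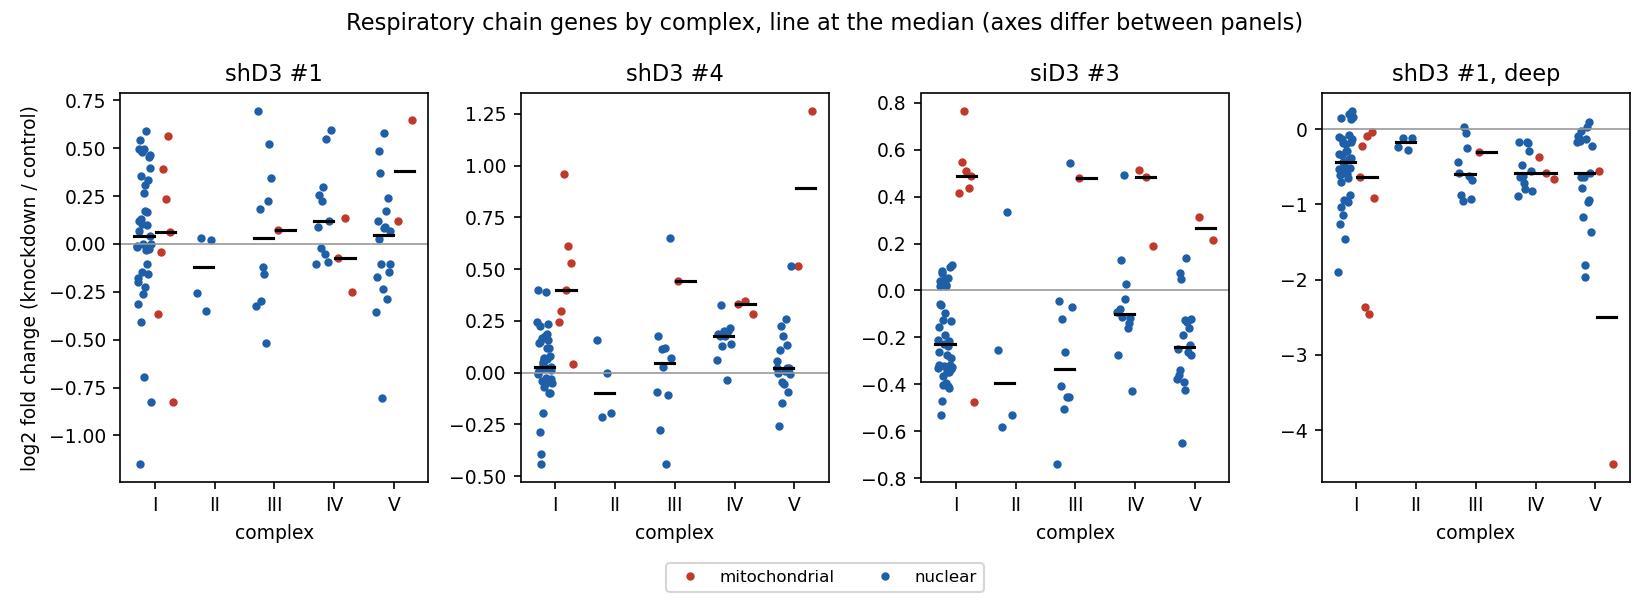
The plots show the log2 fold change of every tested member by complex, nuclear genes in blue and mitochondrial mRNAs in red, with a line at each median and a y axis of its own in each panel. In siD3 #3 the mitochondrial medians lie above and the nuclear ones below 0 in complexes I, III, IV and V, with values of 0.49 and -0.23 in complex I.

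In the 3 first comparisons 1 mitochondrial mRNA, MT-ND3, was higher at the adjusted p alone each time, and 1 nuclear gene, UQCRFS1, was lower each time. The share of all genes that did so was not worked out, so these counts cannot be set against it. UQCRFS1, the Rieske iron-sulphur protein of complex III, was singled out after its values were seen. It stood at 133.9, 125.1 and 149.4 cpm in sh1Control and at 84.7, 88.8 and 109.0 cpm in shD3 #1 (log2 fold change -0.52, SE 0.09). In sh4Control it stood at 171.0, 158.5 and 138.2 cpm and in shD3 #4 at 111.6, 114.9 and 113.9 cpm (-0.44, SE 0.07), and in siControl at 152.3 and 140.1 cpm against 113.3, 113.1 and 93.6 cpm in siD3 #3 (-0.45, SE 0.11). It was also lower in deep shD3 #1 (-0.24, SE 0.06), and the groups did not overlap in any of the 4 comparisons. None of these changes reached the fold change threshold.

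The difference between the knockdowns was tested in 1 model of the 17 first libraries. Between shD3 #1 and shD3 #4, 8 members differed past both thresholds, where 25.9% of all genes did. They were 2 of 13 mitochondrial mRNAs, MT-ND1 (shD3 #1 minus shD3 #4 -0.61, SE 0.18, edgeR adjusted p = 0.0102) and MT-ND6 (-0.87, SE 0.21, edgeR adjusted p = 0.0021), and 6 of 83 nuclear genes. The median difference of the mitochondrial mRNAs was -0.41. Between siD3 #3 and the mean of the shRNAs, 0 mitochondrial mRNAs and 2 nuclear genes, COX8A (-0.78) and ATP5MF (-0.71), differed past both thresholds, against 16.5% of all genes. Of the 83 nuclear genes, 25 were lower and 1 higher in siD3 #3 than in the shRNAs at the adjusted p alone, against 14.6% and 14.5% of all genes. The siRNA and the shRNAs also differed in delivery, in the use of doxycycline and in the days to harvest. These cannot be told apart from the knockdown in this comparison. The called difference of 0 mitochondrial mRNAs does not show that they changed alike, as 1 of 13 passed the adjusted p alone and the median difference was 0.20.

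The genes that make and handle mitochondrial RNA are given by counts, to be read against the shares of all genes at the adjusted p alone. These were 27.8% lower and 28.6% higher in shD3 #1, 20.8% and 20% in shD3 #4, 16.4% and 16.6% in siD3 #3, and 31.5% and 31.1% in deep shD3 #1. Of 33 tested genes of mitochondrial transcription and RNA processing, 14 were lower and 5 higher at the adjusted p alone in shD3 #1. It was 11 and 5 with hairpin #4 and 10 and 0 with the siRNA. In deep shD3 #1 it was 19 and 4 of 34. The most lowered called genes were ELAC2 in shD3 #1 (-0.68), MTERF3 in siD3 #3 (-0.93) and SLIRP in deep shD3 #1 (-1.40). HSD17B10 was called higher in deep shD3 #1 (1.13, SE 0.06). The genes named next were picked after their values were seen, and they leave out those that rose. POLRMT, the mitochondrial RNA polymerase, had log2 fold changes of -0.31 (SE 0.07) and -0.23 (SE 0.06) with the hairpins #1 and #4, -0.59 (SE 0.09) with the siRNA and -0.31 (SE 0.05) in deep shD3 #1, and passed the adjusted p in each. PNPT1, a nuclease of mitochondrial RNA decay, had -0.68 (SE 0.09) in siD3 #3 and -0.23 (SE 0.07) in shD3 #4, and -0.18 (SE 0.08), which did not pass, in shD3 #1. GRSF1, a binding protein of light-strand RNA, had -0.43 (SE 0.07) in shD3 #1, -0.33 (SE 0.07) in shD3 #4 and -0.25 (SE 0.09), which did not pass, in siD3 #3. Of 14 regulators of nuclear respiratory genes, 6 were lower and 3 higher at the adjusted p alone in shD3 #1. It was 5 and 2 with hairpin #4, 2 and 0 with the siRNA and 7 and 3 in deep shD3 #1. Among them PPARGC1A, a coactivator of mitochondrial biogenesis, fell by 1.24 (SE 0.07) in shD3 #1 and rose by 1.10 (SE 0.07) in shD3 #4. It had -0.72 (SE 0.49, edgeR adjusted p = 0.295) in siD3 #3. In deep shD3 #1 PPARGC1A fell by 0.67 (SE 0.11) and GABPB1 rose by 0.66 (SE 0.06). NRF1 fell by 0.60 (SE 0.10) in shD3 #1 and by 0.29 (SE 0.09) in shD3 #4 and had -0.32 (SE 0.14), which did not pass, in siD3 #3.

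The other lists of mitochondrial metabolism are to be read against the same shares of all genes, and several of their counts lie near or under them. Of 14 genes of the tricarboxylic acid cycle, 7 were lower and 3 higher in shD3 #1 at the adjusted p alone, 0 and 3 with hairpin #4, and 3 and 0 with the siRNA. Of 50 assembly factors tested, 12 were lower and 11 higher in shD3 #1. It was 9 and 5 with hairpin #4 and 12 and 2 with the siRNA. Of 16 genes of mitochondrial DNA maintenance tested, 8 were lower and 2 higher in shD3 #1, 6 and 2 with hairpin #4, and 7 and 1 with the siRNA. Among them RRM2B, the p53-induced ribonucleotide reductase subunit, rose by 0.98 (SE 0.07) in shD3 #1 and by 1.59 (SE 0.12) in siD3 #3 and had -0.08 (SE 0.08) in shD3 #4. Of 19 glycolysis genes, 3 were lower and 5 higher in shD3 #1, 4 and 7 with hairpin #4, and 5 and 1 with the siRNA. Of 14 tested genes of the mobile carriers and coenzyme Q synthesis, 8 were lower and 2 higher in shD3 #1, with a median of -0.23, and 3 and 3 with hairpin #4, with a median of -0.03. With the siRNA it was 6 and 1 of 15, with a median of -0.34.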

How the data were processed

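RNA from A549 cells was sequenced in 17 first and 6 deep libraries. Ribosomal RNA was depleted and strand-marked libraries were built. The authors trimmed reads (Trimmomatic 0.40, per the submitters' processing notes), aligned them with STAR 2.7.10a to GRCh38.p14 and deposited raw counts of reads per gene, without normalisation. The first table is keyed by versioned Ensembl identifier and the deep one by symbol, although only a RefSeq annotation is named, and the setting for strand is not given in the sources used here. Positions, lengths and overlaps came from GENCODE release 44, and mitochondrial bases from hg38.

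Fold changes of a knockdown over its matching controls came from the quasi-likelihood test of edgeR 4.0.16 under R 4.3.3, after filterByExpr and TMM scaling, with Benjamini-Hochberg adjustment over all genes tested. Called genes passed an adjusted p of 0.05 and a change of 1.5-fold. Differences between knockdowns were fitted in 1 model of the 17 libraries. Cpm values were TMM-scaled within a table, and RPKM divided them by the length of the canonical transcript. Intervals of counting error were not used, since replicates give the spread. The test recovered the direction and size of known changes in simulated counts, but false calls ran somewhat above the nominal rate, most in siD3 #3, so a call near the threshold there is weaker than its adjusted p states. No pair of replicate libraries was identical or within sampling noise.

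The members and lists were chosen with earlier results of these data known. The genes named were the 13 mitochondrial mRNAs; nuclear genes called in the same direction, or in opposite directions, across first comparisons; in each comparison and complex the called gene with the largest rise and the largest fall among those with a mean of at least 5 cpm in a group; CYC1, SDHA, ATP5F1A, ATP5F1B and COX4I1; NDUFA4L2, COX4I2 and COX7A1; and THUMPD3. Other names, those of the pathway lists included, were added after their values were seen. Alternatives were DESeq2 1.42.0, its size factors, scaling by nuclear genes, other filters, thresholds and sets of summed members, each replicate left out, the replicate number as a block and 1 fit of all first libraries. Python 3.11.15 and matplotlib 3.10.9 were used for tables and figures.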

Additional observations from a re-analysis of the deposited data

Results flagged for a closer look

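The change differed between shD3 #1 and shD3 #4, by a test of the difference in 1 model of the first libraries, in 8 members. The values of shD3 #1 minus shD3 #4 on the log2 scale were -0.61 for MT-ND1, -0.87 for MT-ND6, -0.72 for NDUFA11, 0.98 for NDUFA5, -0.62 for NDUFB3, -0.84 for NDUFV2, -0.66 for ATP5MC2 and -0.61 for ATP5PO. Between siD3 #3 and the mean of the shRNAs it differed by -0.78 for COX8A and by -0.71 for ATP5MF. NDUFA11, NDUFV2, ATP5PO and COX8A share 9.7%, 28.4%, 15.5% and 35.4% of their exon bases with another gene on the same strand and stood under 10 cpm in sh1Control.

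In first and deep shD3 #1, 1 mitochondrial mRNA (MT-ND3) and 7 nuclear genes (NDUFB2, NDUFB4, NDUFS5, UQCR10, UQCRQ, ATP5IF1 and ATP5MF) were higher in every first knockdown library and lower in every deep one, as were 1.4% of the 13882 genes tested in both tables. This difference between the tables was not tested. No test for outlying samples was made for single genes, since the groups hold 3 samples or fewer.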

How the results depend on the processing

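Counts of called genes were small and moved with the settings, while the medians and the ratio mostly did not. With DESeq2 or with 1 fit of all first libraries, 0 mitochondrial mRNAs were called higher in shD3 #1 in place of 1. Without a filter beyond 1 count, or with at least 10 counts in every library, 1 nuclear gene was called higher there in place of 2, and with the latter filter 2 mitochondrial mRNAs were called higher in siD3 #3 in place of 1. At a log2 fold change of at least 1, the mitochondrial mRNAs called were 0 higher and 0 lower in shD3 #1, 1 higher in shD3 #4, 0 higher in siD3 #3 and 3 lower in the deep libraries, and the nuclear genes 0 higher and 1 lower in shD3 #1, 0 lower in siD3 #3 and 9 lower in the deep libraries. At the adjusted p alone, the mitochondrial mRNAs were 4 higher and 3 lower, 12 higher, 3 higher and 11 lower in the same order, and the nuclear genes called higher were 20 in shD3 #1, 14 in shD3 #4 and 2 in the deep libraries, and those called lower 11, 4 and 61, with 20 lower in siD3 #3. As a mean of log2 cpm over members, the mitochondrial to nuclear difference of deep shD3 #1 was -0.68 in place of -0.01, since the short mRNAs then weigh as much as the long ones.

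Same-numbered samples had correlations of their deviations from -0.108 to 0.142, so the numbers were not taken to pair them. With the replicate block, 4 nuclear genes were called higher in shD3 #1 in place of 2 and 5 mitochondrial mRNAs higher in siD3 #3 in place of 1; no other count of calls moved by over 1.5 times.

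With each library left out in turn, mitochondrial mRNAs called higher ranged from 0 to 2 in shD3 #1, from 2 to 5 in shD3 #4 and from 0 to 5 in siD3 #3 (0 without either siControl library, 5 without replicate 3 of siD3 #3), and those called lower in siD3 #3 from 0 to 1. Nuclear genes called higher in shD3 #1 ranged from 0 to 5, those called lower in siD3 #3 from 1 to 4 and in the deep libraries from 21 (without replicate 1 of deep shD3 #1) to 39. Members that differed between siD3 #3 and the shRNAs ranged from 2 to 6, and the mitochondrial median of shD3 #1 from 0.022 to 0.173 and of siD3 #3 from 0.315 (without its replicate 2) to 0.547. Where siControl lost a library, the lone one was assumed to vary like the other group.

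Some log2 fold changes near 0, which did not pass the test, changed sign. In shD3 #1, MT-ND2 had 0.053 and 0.017 without sh1Control replicate 1 or shD3 #1 replicate 3. NDUFA1 had 0.001 with DESeq2, 0.005 with the replicate block, 0.132 and 0.015 without sh1Control replicate 1 or 3 and 0.113 without shD3 #1 replicate 2. ATP5ME had -0.051 and -0.066 without sh1Control replicate 2 or shD3 #1 replicate 3. In shD3 #4, MT-ND6 had -0.008 and -0.101 without sh4Control replicate 3 or shD3 #4 replicate 2. NDUFV2 had -0.01 with DESeq2, -0.006 in 1 fit, and -0.047 and -0.151 without sh4Control or shD3 #4 replicate 1. UQCRB had -0.014 and COX4I1 -0.028 without shD3 #4 replicate 2. ATP5ME had 0.01 and 0.03 without sh4Control replicate 2 or shD3 #4 replicate 1, and ATP5F1B -0.031 and -0.004 without sh4Control replicate 3 or shD3 #4 replicate 1. In siD3 #3, MT-ATP8 had -0.036 without siControl replicate 1, and UQCR10 0.001 with at least 10 counts, 0.078 with the replicate block and 0.073 without siD3 #3 replicate 3. In the deep libraries MT-ND5 had 0.029 without deep shD3 #1 replicate 3. The other end of these leave-one-out ranges was, in shD3 #1, -0.1 for MT-ND2, -0.162 for NDUFA1 and 0.221 for ATP5ME, in shD3 #4, 0.111 for MT-ND6, 0.129 for NDUFV2, 0.187 for UQCRB, 0.162 for COX4I1, -0.137 for ATP5ME and 0.054 for ATP5F1B, in siD3 #3, 0.485 for MT-ATP8 and -0.174 for UQCR10, and in the deep libraries -0.107 for MT-ND5. The causes were not tested. The scalings moved the median of all genes by less than 0.1. With 2 siControl libraries and 3 in other groups, the number of libraries limits what could pass.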
